A study of Mus musculus with 34 samples.

Results

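The genes described here are 42 genes that mark neutrophils, monocytes, macrophages and dendritic cells, measured in spleen cells that had been sorted for CD4, a surface protein of helper T cells. They were chosen by name, with earlier results of these data known. Of the 42 genes, 40 had a probe set annotated to that symbol alone, among 19938 genes with such a probe set, and Fpr1 and Fpr2, receptors for bacterial formyl peptides, were not analysed here. No gene of the 40 had more than 1 such probe set. Of the 40 genes, 36 reached a mean log2 value of at least 5.327 in at least 1 of the 10 groups, the limit for testing, and Elane, Mmp8, Cxcr2 and Xcr1 did not.

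The arrays compared CD4+ spleen cells of female mice, 8 weeks old, of 5 inbred strains (129X1/SvJ, A/J, Balb/c, DBA/2J and C57BL/6J) in an unstimulated state (T0) and after 4 h (T1) with phorbol 12-myristate 13-acetate (PMA) at 10 ng/ml and ionomycin at 1 uM. The study asked how the strains differ in inducible gene expression, and the drug pair activates protein kinase C and raises cell calcium, so that it acts on any cell type present and not only through the T cell receptor. The cells were taken with magnetic beads against CD4 on an autoMACS column, and all groups shared a medium with 10% fetal calf serum. Each time point had 4 arrays of A/J (replicate numbers 1, 2, 4 and 5), 3 of Balb/c (1, 2 and 4), 4 of C57BL/6J (1 to 4), 3 of DBA/2J (2, 3 and 4) and 3 of 129X1/SvJ (1, 2 and 4), which makes 34 arrays and 17 pairs of T0 and T1 with the same strain and number. Whether the T0 cells spent the same hours in culture is not clear from the sources used here.

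Neutrophils fill their granules with antimicrobial proteins while they mature in the bone marrow. The messages for many of these proteins are more abundant in immature cells than in mature ones. Macrophages of the spleen clear old red cells and debris, and those of the red pulp carry Vcam1 and Hmox1, while the complement subunits C1qa, C1qb and C1qc are made by many tissue macrophages. Dendritic cells present antigen to T cells, and the plasmacytoid type, which releases interferon, carries Siglech. Resting CD4+ T cells are not a known source of the granule proteins or of C1q, and some mouse dendritic cells and macrophages carry CD4 themselves.

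All values are log2 array signals, so that a difference of 1 is a doubling of signal, and levels of different probe sets were not compared. A gene was called where limma's moderated test gave an adjusted p below 0.05 over all 11413 genes tested. The labels call the replicates biological and give no animal or pooling for them, so the p-values measure the spread between these samples. The T cell genes were high on these arrays, with strain means at T0 of 9.23 to 9.58 for Cd4 and 9.07 to 9.71 for Cd3e, a subunit of the T cell receptor complex. Genes of other lymphocytes were present too, with strain means at T0 of 8.33 to 9.57 for Cd79a, a subunit of the B cell receptor, and 6.58 to 7.24 for Cd8a. The Balb/c T1 array of replicate 2 stood apart, with a mean correlation of 0.948 with its own group, against at least 0.965 for every other array, and counts without both Balb/c arrays of replicate 2 are given where they differ. In bulk RNA, fewer cells of a type and less RNA per cell cannot be told apart.

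Of the 36 genes tested, 21 reached the limit in all 10 groups. The other 15 did so in some groups only, among them all 8 granule and cytosol genes that were tested, so a difference between groups was a condition of entering the test for these genes. Counts over the genes tested are therefore given as descriptions. The 4 genes under the limit were neutrophil elastase (Elane, group means 4.47 to 5.20), the neutrophil collagenase Mmp8 (at most 4.76), the chemokine receptor Cxcr2 (at most 5.19) and Xcr1, a receptor of cross-presenting dendritic cells (4.45 to 4.93). Cxcr2 was nearer the limit at T0 (strain means 4.59 to 5.19) than at T1 (3.27 to 3.71), and its level was not tested.

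The granule genes with the widest strain differences were Ngp, Ltf, Lcn2, S100a8 and S100a9, and the 250 bases of RefSeq sequence (GRCm38.p6) before their starts are shown. Only this reference sequence was used, and not that of each strain, so the windows do not bear on the strain differences. Each is written 5′ to 3′ on the gene's own strand. Capitals mark matches, on either strand, to TTGCNNAA (a loose form of a C/EBP site, with N for any base), GAGGAA (a PU.1 core) or TATAAA (the TATA box). These letters were chosen with the results known. The windows were chr9:110419558-110419807 (+) for Ngp, chr9:111019042-111019291 (+) for Ltf, chr2:32387740-32387989 (-) for Lcn2, chr3:90668821-90669070 (+) for S100a8 and chr3:90695722-90695971 (-) for S100a9.
Ngp: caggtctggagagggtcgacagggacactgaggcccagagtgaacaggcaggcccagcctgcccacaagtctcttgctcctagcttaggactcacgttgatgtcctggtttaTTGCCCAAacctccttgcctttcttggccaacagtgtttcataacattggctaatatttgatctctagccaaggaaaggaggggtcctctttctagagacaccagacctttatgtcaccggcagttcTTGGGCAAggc
Ltf: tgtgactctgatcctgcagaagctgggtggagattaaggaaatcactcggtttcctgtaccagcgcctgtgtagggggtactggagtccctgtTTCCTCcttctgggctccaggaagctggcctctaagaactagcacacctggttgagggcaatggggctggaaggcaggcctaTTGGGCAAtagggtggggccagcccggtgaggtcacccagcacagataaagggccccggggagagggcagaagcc
Lcn2: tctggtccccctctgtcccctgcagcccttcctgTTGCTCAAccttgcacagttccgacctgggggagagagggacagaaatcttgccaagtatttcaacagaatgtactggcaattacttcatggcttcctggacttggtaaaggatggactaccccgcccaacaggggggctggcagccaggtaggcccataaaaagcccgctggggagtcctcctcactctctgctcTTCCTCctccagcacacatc
S100a8: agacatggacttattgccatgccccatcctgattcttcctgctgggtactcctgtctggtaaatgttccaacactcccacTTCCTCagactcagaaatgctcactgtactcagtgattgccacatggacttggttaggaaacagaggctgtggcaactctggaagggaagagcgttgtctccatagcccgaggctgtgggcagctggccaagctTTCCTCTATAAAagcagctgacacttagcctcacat
S100a9: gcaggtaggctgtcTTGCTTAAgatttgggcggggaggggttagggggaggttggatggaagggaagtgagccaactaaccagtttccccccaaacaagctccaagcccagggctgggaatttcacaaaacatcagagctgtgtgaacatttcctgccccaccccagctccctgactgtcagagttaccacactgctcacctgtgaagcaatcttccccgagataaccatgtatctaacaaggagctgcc

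TTGCNNAA stood in the windows of 5 of the 9 granule genes with a promoter entry (55.6%), against 10.8% of 27025 genes. GAGGAA stood in 6 of 9 (66.7%) against 25.9%, and TATAAA in 1 of 9 (11.1%) against 14.3%. Ngp held 2 matches to TTGCNNAA, and Ltf, Lcn2 and S100a9 held 1 each. In S100a8 the TATAAA match directly follows one of its 2 GAGGAA matches, read on the other strand as TTCCTC. The window of Camp (chr9:109849457-109849706, -) held no match to the 3 motifs. Over the 32 genes with an entry, 8 held TTGCNNAA and 17 (53.1%) held GAGGAA. A match describes letters in these windows and was not tested as a binding site.

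In unstimulated cells the granule genes separated the strains, with A/J highest and C57BL/6J lowest, and no strain difference was called for the tissue macrophage genes. The test of any strain difference at T0 called 12 of the 36 genes, against 18.5% of all genes tested. It called 7 of 8 granule and cytosol genes and 0 of 6 tissue macrophage genes. The 7 include Mpo, which entered the test through A/J T0 alone, so its call is no support for a difference. For the tissue macrophage genes no gene had an unadjusted p below 0.05 in limma either, nor a call with limma's trend and robust options. The difference between these role groups was not itself tested. The median range between strain means was 0.75 over the 36 genes and 0.27 over all genes.

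Ngp encodes neutrophilic granule protein, a relative of the cathelicidins. Its values at T0 (probe set 10589535) were 9.49, 9.28, 9.44 and 9.36 for A/J, 8.03, 6.65 and 9.31 for Balb/c, 5.24, 5.31, 6.61 and 6.15 for C57BL/6J, 7.86, 8.79 and 9.11 for DBA/2J and 8.50, 8.23 and 8.79 for 129X1/SvJ, in order of replicate number. Every C57BL/6J array lay below every array of the other strains, the nearest being Balb/c replicate 2. The strain means ran from 5.83 ± 0.66 (SD, n = 4) in C57BL/6J over 8.00 ± 1.33 (n = 3) in Balb/c, 8.51 ± 0.28 (n = 3) in 129X1/SvJ and 8.59 ± 0.65 (n = 3) in DBA/2J to 9.39 ± 0.09 (n = 4) in A/J. Balb/c overlapped with A/J, 129X1/SvJ and DBA/2J, and the range between strains was 3.57 (adjusted p = 2.83e-06).

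Ltf encodes lactoferrin, which binds iron in the specific granules. Its T0 values (probe set 10589703) were 8.12, 7.99, 8.03 and 8.14 for A/J, 6.82, 5.52 and 8.05 for Balb/c, 4.75, 4.67, 5.38 and 5.32 for C57BL/6J, 6.59, 7.77 and 7.55 for DBA/2J and 7.27, 6.42 and 7.50 for 129X1/SvJ. The C57BL/6J arrays were again the lowest 4, and their mean of 5.03 lay under the limit of 5.327, so the range of 3.04 (adjusted p = 2.29e-06) has a lower end that was not shown to be above background. Lcn2 encodes lipocalin 2, which binds bacterial iron carriers, and had T0 values (probe set 10481627) of 8.90, 8.39, 9.06 and 8.74 for A/J, 7.33, 6.37 and 8.65 for Balb/c, 5.24, 4.85, 6.11 and 5.91 for C57BL/6J, 7.33, 8.47 and 8.50 for DBA/2J and 7.70, 7.64 and 8.09 for 129X1/SvJ. Its range was 3.24 (adjusted p = 3.37e-06), with arrays of A/J, Balb/c and DBA/2J overlapping at the top.

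S100a8 and S100a9 encode the 2 subunits of calprotectin, the main protein of neutrophil cytosol. For S100a9 (probe set 10499861) the T0 values were 8.66, 8.55, 8.37 and 8.24 for A/J, 7.59, 6.78 and 8.38 for Balb/c, 6.13, 5.83, 6.64 and 6.16 for C57BL/6J, 7.10, 7.96 and 8.07 for DBA/2J and 7.71, 7.11 and 7.63 for 129X1/SvJ. Its strain means ranged over 2.27 (adjusted p = 1.64e-06) and those of S100a8 (probe set 10493831) over 2.21 (adjusted p = 4.16e-06). S100a8 ran from 4.69 to 5.23 in C57BL/6J, under the limit, and from 7.03 to 7.41 in A/J. Camp, the cathelicidin precursor (probe set 10597098), ran from 5.09 to 5.39 in C57BL/6J (mean under the limit) and from 6.96 to 7.69 in A/J, with a range between strain means of 2.04 (adjusted p = 1.25e-07). In all 6 of these genes the C57BL/6J arrays lay below every other T0 array, and the lowest of the other arrays was Balb/c replicate 2.

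**Figure D1:**
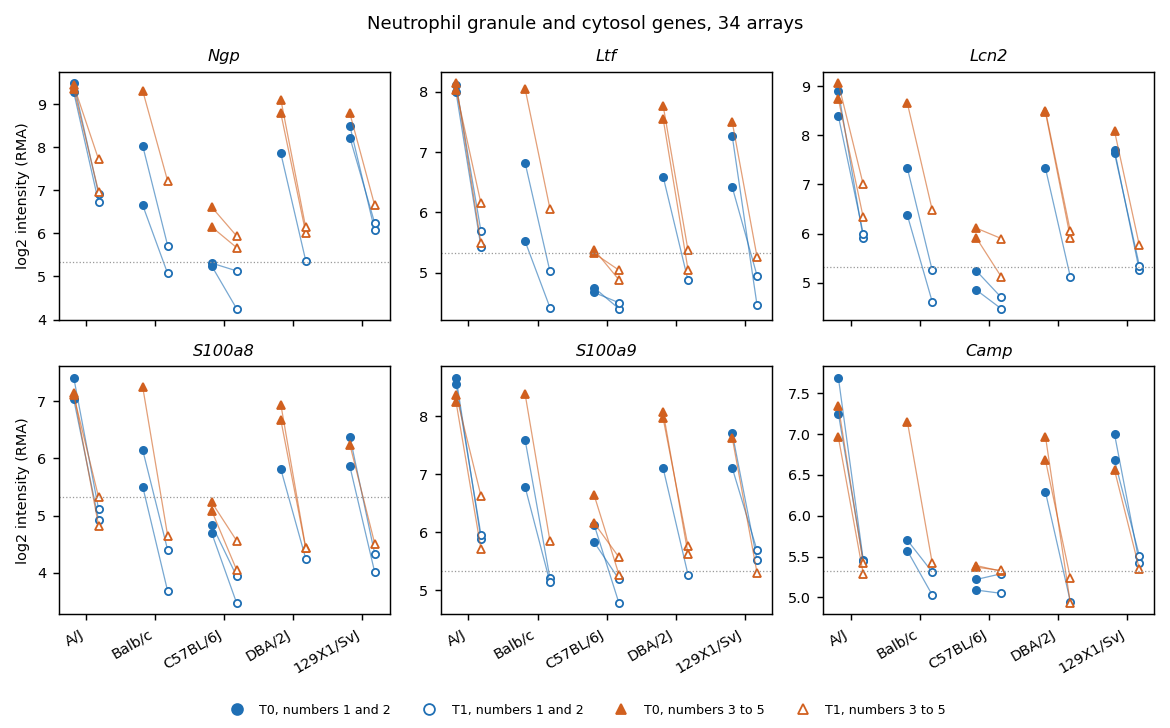
Log2 signal (y axis) of 6 neutrophil granule and cytosol genes on all 34 arrays, by strain (x axis), with T0 filled and T1 open, replicate numbers 1 and 2 as circles and 3 to 5 as triangles, lines joining T0 and T1 of the same strain and number, and a dotted line at the limit of 5.327. A/J was high at T0 and C57BL/6J low, as for Ngp (9.28 to 9.49 against 5.24 to 6.61), and Ngp was lower at T1 in 17 of 17 pairs.

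Myeloperoxidase (Mpo), an enzyme of the azurophil granules, reached the limit in A/J T0 only, and its range of 0.99 was called (adjusted p = 0.0038). As it entered the test through that group alone, the call is no support for a strain difference. The gelatinase gene Mmp9 had a range of 0.53 and was not called (adjusted p = 0.188). Among the receptors, Csf3r, the receptor for granulocyte colony-stimulating factor, was called with a range of 0.85 (adjusted p = 0.0104). Il1b, the inflammatory cytokine interleukin 1 beta, had a range of 1.05 and was not called (adjusted p = 0.352).

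Each strain was then set against the mean of the other 4 at T0, comparisons that share samples with each other. A/J was called in 11 of the 36 genes, against 7.21% of all genes (3.05% higher, 4.16% lower). Higher in A/J were 7 granule genes, by 1.66 for Ngp (SE 0.35, adjusted p = 0.00228), 1.55 for Lcn2, 1.52 for Ltf, 1.22 for S100a9, 1.20 for S100a8, 1.11 for Camp (SE 0.17, adjusted p = 3.71e-05) and 0.63 for Mpo (adjusted p = 0.0263). Mpo entered the test through A/J T0 alone, the group set against the others here, so its call is no support for a difference. It was not tested without A/J T0 replicate 1, since no group then reached the limit, and its call was lost without A/J T0 replicate 4 or 5 (adjusted p = 0.0548 to 0.111). Lower in A/J were Mpeg1 by -0.95, Cybb by -0.73, Tyrobp by -0.65 and Siglech by -0.87 on the log2 scale. The Mpeg1 and Cybb calls were lost without A/J T0 replicate 1 or 2 (adjusted p = 0.0605 to 0.0965 for Mpeg1 and 0.112 to 0.167 for Cybb), that of Tyrobp (adjusted p = 0.0479) without any 1 of 22 arrays, and 7 genes were called without A/J T0 replicate 1.

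C57BL/6J was called in 9 of the 36 genes at T0, all lower, against 8.92% of all genes called and 3.11% called lower. The differences were -2.80 for Ngp (SE 0.35, adjusted p = 1.06e-06), -2.50 for Lcn2, -2.27 for Ltf, -1.62 for S100a9, -1.56 for S100a8, -1.44 for Camp, -0.60 for Mpo (under the limit in every T0 group but A/J), -0.56 for Csf3r and -0.42 for Siglech. Calls near the threshold were those of Mpo (lost without C57BL/6J T0 replicate 1, 2 or 4, DBA/2J T0 replicate 3, 129X1/SvJ T0 replicate 2 or Balb/c T0 replicate 4, adjusted p = 0.0505 to 0.107), Csf3r (lost without C57BL/6J T0 replicate 2, adjusted p = 0.0926) and Siglech (lost without any 1 of 20 arrays, adjusted p up to 0.209). The 6 genes led by Ngp kept their calls without any 1 array. Mpo entered the test through A/J T0 alone, so its call here is no support for a difference either.

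Balb/c was called in 0 of the 36 genes at T0 in limma, against 3.54% of all genes, and 3 had an unadjusted p below 0.05. With limma's trend and robust options the count for Balb/c was also 0, and without Balb/c T0 replicate 4 it was 1, Camp (adjusted p = 0.000415). DBA/2J was called in 1 gene, against 6.34% of all genes called and 2.85% called higher, and this was Siglech, 1.38 higher (SE 0.15, adjusted p = 8.64e-08). The DBA/2J count was 2 to 4 without any 1 of 9 arrays: it was 4 without Balb/c T0 replicate 4, 3 without A/J T0 replicate 5, C57BL/6J T0 replicate 3, DBA/2J T0 replicate 2 or 129X1/SvJ T0 replicate 4, and 2 without A/J T1 replicate 5, Balb/c T1 replicate 2 or 4, or C57BL/6J T0 replicate 4. 129X1/SvJ was called in 3 genes, against 9.44% of all genes called and 4.05% called higher: Cybb 1.19 higher (adjusted p = 0.000637), Mpeg1 0.95 higher (adjusted p = 0.023) and Tyrobp 0.71 higher (adjusted p = 0.0471). The Mpeg1 call was lost without 129X1/SvJ T0 replicate 1, 2 or 4 (adjusted p = 0.0621 to 0.169), which left 1 gene called, and the Tyrobp call without any 1 of 19 arrays of all 5 strains (adjusted p = 0.0513 to 0.36).

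Some single genes of other role groups had another order of the strains than the granule genes. Cybb, the catalytic subunit of the phagocyte NADPH oxidase (probe set 10603551), had T0 values of 8.63, 8.33, 9.14 and 9.17 for A/J, 8.62, 8.67 and 9.50 for Balb/c, 8.95, 8.41, 9.41 and 8.92 for C57BL/6J, 9.46, 10.32 and 10.14 for DBA/2J and 10.14, 10.04 and 10.87 for 129X1/SvJ. Its means were 8.82 ± 0.41 (SD, n = 4) in A/J and 10.35 ± 0.46 (n = 3) in 129X1/SvJ, and the 129X1/SvJ arrays lay above all those of A/J, Balb/c and C57BL/6J (range 1.53, adjusted p = 9.44e-05). Mpeg1, which encodes the pore-forming protein perforin-2 (probe set 10461721), ran from 7.21 to 8.04 in A/J, 7.65 to 8.54 in Balb/c, 7.43 to 9.11 in C57BL/6J, 9.03 to 9.24 in DBA/2J and 9.08 to 9.47 in 129X1/SvJ (range 1.52, adjusted p = 0.0018). Tyrobp, the signalling adaptor DAP12, followed with a range of 1.09 (adjusted p = 0.0148). It was not called without 129X1/SvJ T0 replicate 4 (adjusted p = 0.0649). Itgam, Fcgr3 and Fcer1g, of the same role group as Cybb and Tyrobp, were not called (ranges 0.55, 0.24 and 0.25). Whether the order of the strains differs between role groups was not tested.

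Siglech, a receptor of plasmacytoid dendritic cells (probe set 10553559), was highest in DBA/2J at T0. Its values were 6.46, 6.11, 6.54 and 6.64 for A/J, 7.18, 7.03 and 6.91 for Balb/c, 6.91, 6.60, 7.07 and 6.62 for C57BL/6J, 8.68, 8.27 and 7.76 for DBA/2J and 7.32, 6.93 and 7.21 for 129X1/SvJ. The DBA/2J arrays lay above all others, and Balb/c, C57BL/6J and 129X1/SvJ overlapped (range 1.80, adjusted p = 8.54e-08). Itgax, the integrin CD11c of dendritic cells, had a range of 0.74 and Batf2, a transcription factor induced by interferon, a range of 0.24, and neither was called.

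No strain difference was called for the tissue macrophage genes at T0 in the fit without the class of replicate numbers. C1qa (probe set 10517517) had values of 7.16, 6.81, 7.86 and 7.69 for A/J, 6.62, 6.74 and 7.88 for Balb/c, 6.09, 6.18, 7.61 and 7.30 for C57BL/6J, 6.31, 7.37 and 6.79 for DBA/2J and 7.10, 6.55 and 7.97 for 129X1/SvJ, so that the strains overlapped (range 0.58). The ranges were 0.80 for C1qb, 0.72 for C1qc, 0.67 for the adhesion receptor Vcam1, 0.87 for the haem-degrading enzyme Hmox1 and 0.16 for Marco, a scavenger receptor of marginal zone macrophages. Of the 9 monocyte and macrophage genes, Mpeg1 alone was called. Lysozyme (Lyz2), made by neutrophils and macrophages alike, had strain means within 0.33 (adjusted p = 0.978). The ranges were 0.33 for Csf1r, the receptor for macrophage colony-stimulating factor, 0.34 for Adgre1, a surface antigen of macrophages, 0.83 for Cd14, a co-receptor for lipopolysaccharide, and 0.26 for the lysosomal protein Cd68.

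**Figure D2:**
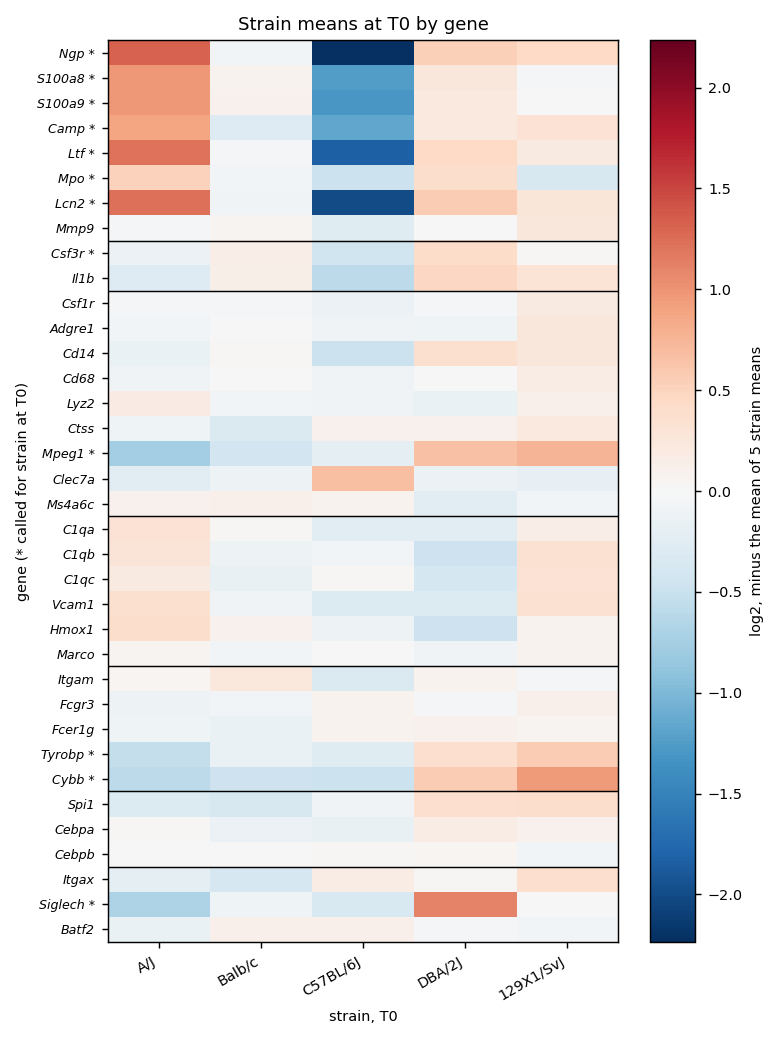
Strain means at T0 minus the mean of the 5 strain means (log2, colour), for the genes tested (rows, by role) and the 5 strains (columns); an asterisk marks the 12 genes called for any strain difference at T0. The granule genes stand out, high in A/J and low in C57BL/6J (Ngp 9.39 against 5.83), and no tissue macrophage gene carries an asterisk. The fit held no term for the replicate numbers.

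Genes of other cell types differed between strains at T0 as well, and their part in these results was not tested. T cell genes also differed, with ranges between strain means from 0.33 (Cd28, not called) to 2.00 (Trat1, adjusted p = 7.75e-06). The mean level of 12 T cell genes relative to all 34 arrays was 0.22 to 0.43 in A/J, 0.16 to 0.26 in Balb/c, 0.08 to 0.19 in C57BL/6J, -0.19 to 0.11 in DBA/2J and -0.13 to 0.02 in 129X1/SvJ. In A/J, 6 of 8 erythroid genes were higher (median difference 1.34), against 3.05% of all genes, and 10 of 14 B cell genes lower (median -0.65), against 4.16%. In C57BL/6J the median over the 8 erythroid genes was -0.64, and 4 of 14 B cell genes were lower, against 3.11% of all genes. In 129X1/SvJ, 6 of 8 erythroid genes were lower (median -1.94), against 5.39% of all genes, and of 14 B cell genes 9 were higher, against 4.05%, and 1 was lower. The mean level of the 14 B cell genes, taken relative to all 34 arrays, was -0.13 to 0.10 in A/J, 0.28 to 0.30 in Balb/c, -0.34 to 0.55 in C57BL/6J, 0.64 to 1.26 in DBA/2J and 0.74 to 1.22 in 129X1/SvJ. Cybb, Ctss and Spi1 are known to be expressed in B cells too. Mpeg1, like the B cell genes, was highest in mean at T0 in DBA/2J and 129X1/SvJ, and which cells gave its signal was not tested. For the 8 erythroid genes the levels were 0.55 to 1.53 in A/J, -0.61 to 1.10 in Balb/c, -1.16 to 0.45 in C57BL/6J, 0.20 to 0.72 in DBA/2J and -2.00 to -1.67 in 129X1/SvJ. The 10 granule and cytosol genes had 1.27 to 1.54 in A/J, -0.14 to 1.32 in Balb/c, -0.74 to -0.27 in C57BL/6J, 0.39 to 1.23 in DBA/2J and 0.47 to 0.86 in 129X1/SvJ. The 2 lists thus lay furthest apart in 129X1/SvJ.

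After 4 h with PMA and ionomycin the granule genes were lower in signal and the tissue macrophage genes were not called. Single genes listed for monocytes and dendritic cells moved strongly, some down and some up. Over the mean of the 5 strain differences, 25 of the 36 genes were called, 21 lower and 4 higher, against 82.3% of all genes called, 46.3% lower and 36% higher. The share of the 36 genes that was called lay below that background. The median difference was -0.44 over the 36 genes and -0.07 over all genes. Without both Balb/c arrays of replicate 2 the count lower was 19 and the count higher 4.

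Of the 8 granule and cytosol genes, 7 fell, with a median over the 8 of -1.78. Ngp fell from 9.49, 9.28, 9.44 and 9.36 at T0 in A/J to 6.92, 6.72, 7.72 and 6.97 at T1. Its T1 values were 5.72, 5.07 and 7.22 for Balb/c, 4.25, 5.13, 5.94 and 5.67 for C57BL/6J, 5.37, 6.02 and 6.14 for DBA/2J and 6.07, 6.24 and 6.65 for 129X1/SvJ. It was lower at T1 in 17 of 17 pairs, with a mean difference of -1.96 (SE 0.21, adjusted p = 8.17e-10), and T0 and T1 did not overlap in 3 of the 5 strains.

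S100a9 had T1 values of 5.89, 5.96, 6.63 and 5.72 for A/J, 5.21, 5.14 and 5.85 for Balb/c, 4.78, 5.19, 5.27 and 5.57 for C57BL/6J, 5.27, 5.76 and 5.63 for DBA/2J and 5.52, 5.69 and 5.30 for 129X1/SvJ, below the T0 values in every strain. Its mean difference was -1.94 (SE 0.13, adjusted p = 5.78e-15), and those of the others were -1.94 for Lcn2 (SE 0.19), -1.82 for S100a8 (SE 0.13), -1.74 for Ltf (SE 0.18), -1.15 for Camp (SE 0.10) and -0.60 for Mmp9 (SE 0.08). Lcn2, S100a8, S100a9 and Ltf were lower in 17 of 17 pairs, and Camp and Mmp9 in 16. The T1 means of S100a8 and Mmp9 lay under the limit in all 5 strains, and those of Ltf in all but A/J, so these differences are no exact folds. Mpo differed by -0.08 and was not called.

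**Figure D3:**
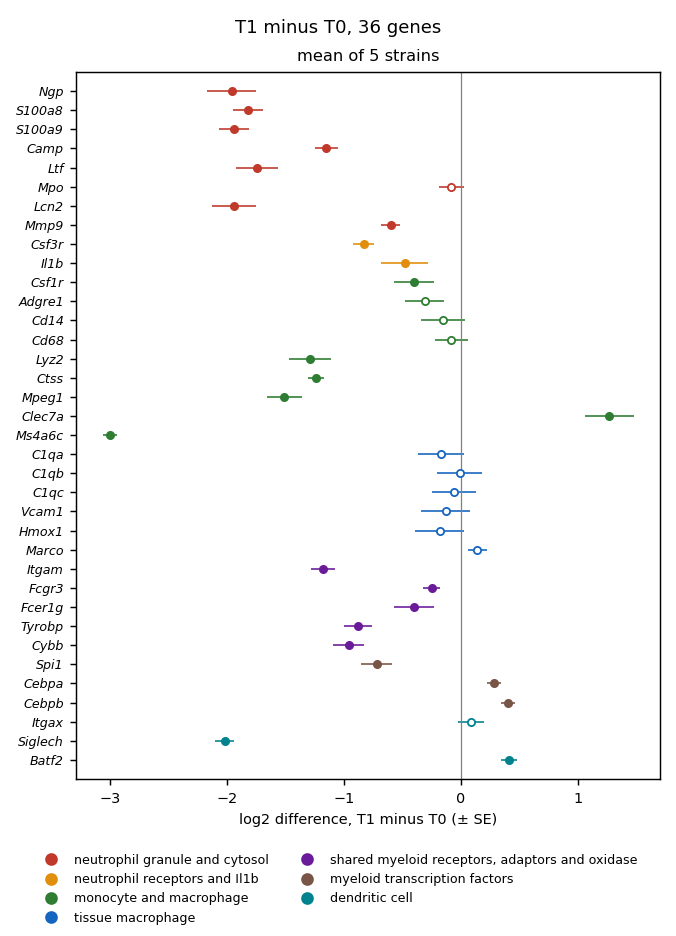
Difference T1 minus T0 (log2, x axis; mean of the 5 strain differences with its SE) for the 36 genes tested (y axis), coloured by role, with filled points for genes called. The granule and cytosol genes run from -1.96 (Ngp) to -0.08 (Mpo, not called) and the tissue macrophage genes from -0.18 to 0.14, Ms4a6c is lowest at -3.00 and Clec7a highest at 1.27.

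Csf3r fell by 0.83 on the log2 scale (SE 0.09, adjusted p = 3.04e-10), in 17 of 17 pairs. It was at or above the limit in all 5 T0 groups and in 0 of the 5 T1 groups, so it entered the test through the T0 side and its difference is no exact fold. Il1b differed by -0.48 (adjusted p = 0.0295), a call lost without Balb/c T1 replicate 1, Balb/c T0 replicate 4, DBA/2J T1 replicate 2, DBA/2J T0 replicate 3 or 4, 129X1/SvJ T1 replicate 1 or 129X1/SvJ T0 replicate 4 (adjusted p = 0.0524 to 0.0719). Among the 9 monocyte and macrophage genes, 5 fell and 1 rose.

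Ms4a6c, a member of the membrane-spanning 4A family listed here for monocytes (probe set 10461614), had the lowest difference of the 36 genes, -3.00 (SE 0.06, adjusted p = 7.99e-27). Its T0 values lay close together in all strains, at 9.75, 9.93, 9.65 and 9.83 for A/J, 9.82, 9.73 and 9.85 for Balb/c, 9.69, 9.75, 9.67 and 9.98 for C57BL/6J, 9.49, 9.50 and 9.39 for DBA/2J and 9.55, 9.66 and 9.64 for 129X1/SvJ. At T1 it was at 7.12, 6.99, 7.39 and 6.76 for A/J, 6.28, 6.22 and 6.61 for Balb/c, 6.78, 6.54, 6.58 and 6.67 for C57BL/6J, 6.79, 6.42 and 6.05 for DBA/2J and 7.03, 6.64 and 7.18 for 129X1/SvJ. The highest T1 array (7.39) lay below the lowest T0 array (9.39). The strain differences ran from -2.67 in 129X1/SvJ to -3.43 in Balb/c. In the test of any strain difference at T0, Ms4a6c was not called (range 0.34, adjusted p = 0.334). Which cells gave its signal was not tested.

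Mpeg1 fell by 1.51 (SE 0.15, adjusted p = 1.06e-10), Lyz2 by 1.29 (SE 0.18, adjusted p = 1.95e-07) and Ctss, the antigen-processing protease cathepsin S, by 1.24 (SE 0.07, adjusted p = 8.64e-16) on the log2 scale. Csf1r differed by -0.40 (adjusted p = 0.0343), a call lost without Balb/c T1 replicate 2, Balb/c T0 replicate 4, C57BL/6J T1 replicate 2, C57BL/6J T0 replicate 3, replicate 4 of 129X1/SvJ T0 or DBA/2J T1, 129X1/SvJ T1 replicate 2 or DBA/2J T0 replicate 3 (adjusted p = 0.0548 to 0.0829). Adgre1 (-0.31), Cd14 (-0.15) and Cd68 (-0.08) were not called.

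Clec7a, which encodes dectin-1, a receptor for fungal beta-glucan (probe set 10548375), rose. Its T0 values were 5.13, 5.07, 5.15 and 5.76 for A/J, 4.99, 5.57 and 5.72 for Balb/c, 5.68, 5.52, 7.04 and 6.58 for C57BL/6J, 4.66, 5.86 and 5.73 for DBA/2J and 5.32, 4.78 and 5.98 for 129X1/SvJ, and its T1 values were 5.62, 5.30, 6.60 and 6.24 for A/J, 5.74, 6.79 and 7.49 for Balb/c, 7.18, 6.45, 8.33 and 8.03 for C57BL/6J, 6.34, 7.08 and 6.84 for DBA/2J and 6.62, 6.55 and 8.28 for 129X1/SvJ. T1 was higher in 17 of 17 pairs, by 1.27 on average (SE 0.21, adjusted p = 2.47e-06), with strain differences of 0.66 in A/J, which was not called, to 1.79 in 129X1/SvJ.

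None of the 6 tissue macrophage genes was called by limma for stimulation, at an adjusted or an unadjusted p, nor with its trend and robust options. Marco, higher at T1 in 15 of 17 pairs, was called without A/J T0 replicate 4, C57BL/6J T0 replicate 3 or DBA/2J T0 replicate 3 (adjusted p = 0.0177 to 0.0467). The differences of the 6 genes were -0.18 for Hmox1, -0.17 for C1qa, -0.13 for Vcam1, -0.06 for C1qc, -0.01 for C1qb and 0.14 for Marco. For Vcam1 the direction depended on the replicate numbers: the difference was 0.32 (adjusted p = 0.0145) with numbers 1 and 2 only and -0.55 (adjusted p = 0.0184) with numbers 3 to 5 only. The mean level of the 6 genes relative to all 34 arrays ran from -0.93 to 0.86 at T0 (median 0.11) and from -0.81 to 0.69 at T1 (median 0.00), whereas that of the 10 granule and cytosol genes ran from -0.74 to 1.54 at T0 (median 0.77) and from -1.19 to 0.10 at T1 (median -0.64).

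All 5 shared receptors, adaptors and oxidase genes were called lower, with a median of -0.88, though Fcgr3 was close to background. Itgam, the integrin CD11b (probe set 10557862), went from 6.50, 6.74, 6.52 and 6.75 at T0 to 5.39, 5.48, 5.91 and 5.30 at T1 in A/J, and T0 and T1 did not overlap in any strain (-1.18, SE 0.10, adjusted p = 5.74e-12). Cybb fell by 0.96 (SE 0.13), Tyrobp by 0.88 (SE 0.12) and the Fc receptor gene Fcgr3 by 0.25. Fcgr3 reached the limit in 129X1/SvJ T0 only, 1 of the 10 groups, so it entered the test through a T0 group and its size has little room above background. Fcer1g, the common chain of Fc receptors, differed by -0.40 (adjusted p = 0.0354), a call lost without A/J T1 replicate 2, A/J T0 replicate 5, Balb/c T1 replicate 2, Balb/c T0 replicate 4, C57BL/6J T1 replicate 1 or 2, C57BL/6J T0 replicate 3 or 4, DBA/2J T1 replicate 2, DBA/2J T0 replicate 3, 129X1/SvJ T1 replicate 2 or 129X1/SvJ T0 replicate 4 (adjusted p = 0.0503 to 0.0831). When the deposited values were quantile-normalised again, the calls of Il1b (adjusted p = 0.194), Csf1r (0.278) and Fcer1g (0.334) were lost.

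Of the transcription factors, Spi1, which encodes PU.1, fell by 0.72 (SE 0.13, adjusted p = 9.02e-06), while Cebpb rose by 0.40 (SE 0.06, adjusted p = 6.04e-07) and Cebpa by 0.28 (adjusted p = 0.000105). Of the dendritic genes, Siglech fell by 2.02 (SE 0.08, adjusted p = 3e-20). Its T1 values were 5.14, 4.82, 5.22 and 4.94 for A/J, 4.88, 4.69 and 5.55 for Balb/c, 4.98, 4.85, 4.74 and 4.81 for C57BL/6J, 5.60, 5.56 and 5.35 for DBA/2J and 5.05, 5.28 and 5.09 for 129X1/SvJ, so that only the DBA/2J mean stayed above the limit. Batf2 rose by 0.41 (SE 0.07, adjusted p = 6.24e-06), and Itgax differed by 0.09 and was not called.

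In A/J, stimulation called 17 of the 36 genes, 14 lower and 3 higher, against 56.6% of all genes, 36.3% lower and 20.3% higher. Balb/c had 16 called, 14 lower and 2 higher, against 54.7%, 34.1% and 20.6%. C57BL/6J had 11 called, 9 lower and 2 higher, against 63.7%, 38.6% and 25.1%. More were called in C57BL/6J when arrays of the same number were treated as fixed pairs. DBA/2J had 20 called, 18 lower and 2 higher, against 60%, 36.2% and 23.8%, and 129X1/SvJ had 20 called, 17 lower and 3 higher, against 56.3%, 34.7% and 21.6%. In A/J, DBA/2J and 129X1/SvJ the differences of Ngp, Ltf and Lcn2 ran from -2.17 (Ltf in 129X1/SvJ) to -2.75 (Ngp in DBA/2J). In C57BL/6J the differences were -0.58 for Ngp, -0.48 for Lcn2, -0.33 for Ltf and -0.02 for Camp, none of them called, and -0.99 for S100a9 (SE 0.26, adjusted p = 0.00146) and -0.96 for S100a8 (SE 0.27, adjusted p = 0.00243). The C57BL/6J T1 means of Ngp (5.25), Lcn2 (5.05) and Camp (5.25) lay under the limit, as did the C57BL/6J T0 means of Ltf, Camp and S100a8, so that these differences have little room above background.

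The test of whether the strain differences in stimulation themselves differed called 3 of the 36 genes, against 6.92% of all genes. Camp had differences from -0.02 in C57BL/6J to -1.91 in A/J (range 1.88, adjusted p = 0.000548), and Siglech from -1.41 in A/J to -2.73 in DBA/2J (range 1.32, adjusted p = 0.0125). The T1 means of Siglech lay under the limit in all strains but DBA/2J, so its differences are no exact folds. Their range cannot be told apart from the strain differences of Siglech at T0. Ltf had a range of 2.05 (adjusted p = 0.0395). It was not called without any 1 of 21 of the 34 arrays (adjusted p = 0.0502 to 0.0991). For Ngp the range of 2.17 was not called (adjusted p = 0.161), nor were those of Lcn2 (1.98, adjusted p = 0.0881) and S100a9 (1.42, adjusted p = 0.0685). These calls depend on the replicate numbers: with the class of numbers (1 and 2, or 3 to 5) as a covariate, 13 genes were called, among them Ngp (adjusted p = 0.00705), Lcn2 (adjusted p = 0.000556) and S100a9 (adjusted p = 0.0177). Without both Balb/c arrays of replicate 2 the count was 8, and it was 5 or 6 without Balb/c T0 replicate 2 or 4 or Balb/c T1 replicate 2 or 4. Treating arrays of the same strain and number as a block, a link that the labels do not give, also called Ngp, Lcn2, S100a9 and S100a8.

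At T1 the test of any strain difference called 6 of the 36 genes, against 31% of all genes, and 10 without both Balb/c arrays of replicate 2. It called 3 genes without A/J T1 replicate 1 or 2 or C57BL/6J T1 replicate 1. Lyz2 had a range of 1.74 (adjusted p = 0.0073), with values of 8.32, 8.32, 9.13 and 8.22 for A/J, 8.42, 8.06 and 8.85 for Balb/c, 8.60, 8.05, 9.11 and 8.70 for C57BL/6J, 6.41, 7.49 and 6.71 for DBA/2J and 8.06, 7.01 and 8.44 for 129X1/SvJ. DBA/2J was lowest in mean, and its call was lost without DBA/2J T1 replicate 2 (adjusted p = 0.0614). Ms4a6c had a range of 0.70 (adjusted p = 0.00069), with Balb/c lowest and A/J highest in mean.

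Ngp kept a strain range of 1.83 at T1 (adjusted p = 0.02), lost without A/J T1 replicate 4 or C57BL/6J T1 replicate 1 (adjusted p = 0.0582 to 0.0728), and S100a8 one of 1.04 (adjusted p = 0.0295), lost without A/J T1 replicate 1, 2 or 4 or C57BL/6J T1 replicate 1 (adjusted p = 0.0543 to 0.111). The other calls at T1 were Itgax with a range of 0.78 (adjusted p = 0.0324), lost without A/J T1 replicate 1, 2 or 5, C57BL/6J T1 replicate 3 or 4 or 129X1/SvJ T1 replicate 4, and Cebpb with a range of 0.48 (adjusted p = 0.0384), lost without A/J T1 replicate 1, 2 or 5, C57BL/6J T1 replicate 1 or 2 or DBA/2J T1 replicate 2 or 3.

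The replicate numbers gave a second pattern, which included all 6 tissue macrophage genes. Arrays numbered 3 to 5 were set against arrays numbered 1 and 2 within strains. The labels give no meaning to the numbers. At T0, 26 of the 36 genes were higher with numbers 3 to 5, against 8.75% of all genes called higher, and 0 were lower, also at an unadjusted p below 0.05 in limma and with its trend and robust options, against 15.5% of all genes called lower. The median difference was 0.59 over the 36 genes and -0.03 over all genes. Of all genes called in this comparison, 36.1% were higher, and 46.4% when the deposited values were quantile-normalised again.

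All 6 tissue macrophage genes were higher with numbers 3 to 5 at T0, with a median difference of 1.00. Vcam1 (probe set 10501608) was at 7.37 and 7.17 for A/J, 6.84 and 6.92 for Balb/c, 6.08 and 6.24 for C57BL/6J, 6.05 for DBA/2J and 7.49 and 7.22 for 129X1/SvJ with numbers 1 and 2. With numbers 3 to 5 it was at 8.30 and 8.10 for A/J, 8.18 for Balb/c, 8.31 and 7.66 for C57BL/6J, 8.04 and 7.12 for DBA/2J and 8.46 for 129X1/SvJ. The 2 classes of numbers did not overlap in any strain, and the difference was 0.93 to 1.82 within strains and 1.34 in the fit (SE 0.17, adjusted p = 7.26e-06).

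C1qa behaved alike, with 7.16 and 6.81 against 7.86 and 7.69 in A/J, 6.62 and 6.74 against 7.88 in Balb/c, 6.09 and 6.18 against 7.61 and 7.30 in C57BL/6J, 6.31 against 7.37 and 6.79 in DBA/2J, and 7.10 and 6.55 against 7.97 in 129X1/SvJ (1.04, SE 0.19, adjusted p = 0.000276). Hmox1 (probe set 10572897) was at 7.47 and 7.46 against 9.71 and 9.04 in C57BL/6J and at 8.79 and 8.82 against 8.98 and 9.14 in A/J (1.02, SE 0.21, adjusted p = 0.00128). The differences were 0.98 for C1qc and 0.96 for C1qb. Marco differed by 0.27 (adjusted p = 0.0368), a call lost without A/J T0 replicate 1, 2 or 4, any C57BL/6J T0 array, DBA/2J T0 replicate 2 or 3 or 129X1/SvJ T0 replicate 1 (adjusted p = 0.0505 to 0.108).

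**Figure D4:**
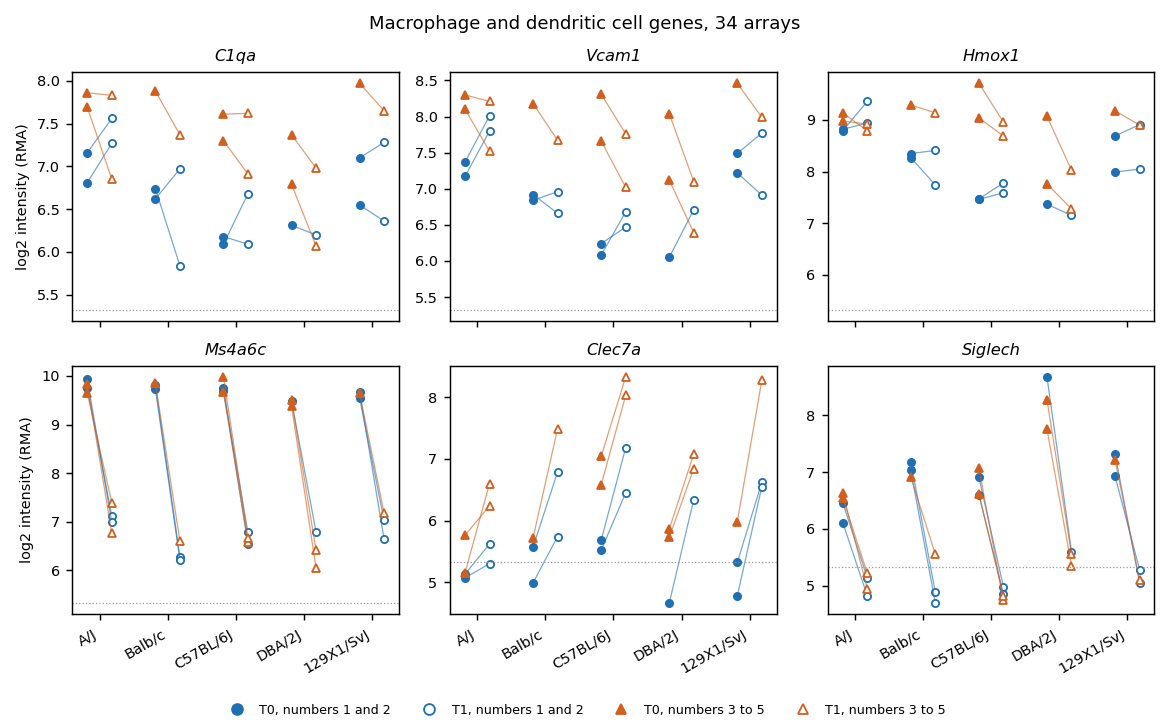
Log2 signal (y axis) of C1qa, Vcam1, Hmox1, Ms4a6c, Clec7a and Siglech on all 34 arrays, by strain (x axis), with T0 filled and T1 open, numbers 1 and 2 as circles and 3 to 5 as triangles, lines joining T0 and T1 of the same strain and number, and a dotted line at 5.327. At T0 the triangles of Vcam1 lie above the circles in every strain, whereas those of Ms4a6c (9.39 to 9.98 over all T0 arrays) do not separate.

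Of the 9 monocyte and macrophage genes, 7 were higher with numbers 3 to 5 at T0 (median 0.81). Lyz2 was higher by 1.00 (SE 0.16, adjusted p = 9.88e-05), Cd14 by 0.91 (SE 0.14, adjusted p = 4.39e-05), Adgre1 by 0.90, Csf1r by 0.88, Clec7a by 0.81, Cd68 by 0.61 and Mpeg1 by 0.60. Cd14 was at 5.04 and 5.23 against 6.48 and 5.64 in C57BL/6J and at 5.49 and 5.64 against 6.33 and 6.23 in A/J. Ctss (0.17) and Ms4a6c (0.01, adjusted p = 0.936) were not called.

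Il1b was higher by 1.03 (SE 0.16, adjusted p = 6.12e-05) and Csf3r by 0.42 (adjusted p = 0.00232). Il1b was at 6.75 and 6.37 against 7.25 and 7.45 in A/J, 7.16 and 7.05 against 7.94 in Balb/c, 6.56 and 5.97 against 7.44 and 6.68 in C57BL/6J, 6.74 against 8.29 and 8.11 in DBA/2J, and 7.03 and 7.07 against 8.56 in 129X1/SvJ. The classes did not overlap in any strain. Fcer1g (0.90, adjusted p = 4.39e-05), Cybb (0.70, adjusted p = 9.84e-05), Tyrobp (0.47) and Itgam (0.37) were also higher, the last not without DBA/2J T0 replicate 2 (adjusted p = 0.0799), and Fcgr3 (0.21) was not called.

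Of the 8 granule and cytosol genes, 4 were higher with numbers 3 to 5 at T0, with a median over the 8 of 0.46. The differences were 0.87 for Lcn2 (SE 0.17, adjusted p = 0.000693), 0.86 for Ngp (SE 0.21, adjusted p = 0.00398), 0.77 for Ltf (adjusted p = 0.00428) and 0.50 for S100a8 (adjusted p = 0.0207), the last lost without Balb/c T0 replicate 4 or DBA/2J T0 replicate 2 (adjusted p = 0.0917 to 0.154). S100a9 (0.42, adjusted p = 0.0531), Camp (0.27), Mpo (0.26) and Mmp9 (0.16) were not called. Within strains the Ngp difference was 0.02 in A/J, 0.43 in 129X1/SvJ, 1.09 in DBA/2J, 1.10 in C57BL/6J and 1.97 in Balb/c, so that A/J, where Ngp was highest, showed next to none. Whether the role groups differ in this comparison was not tested.

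Spi1 was higher by 0.58 (adjusted p = 0.00604), Cebpb by 0.24 (adjusted p = 0.024) and Itgax by 0.39 (adjusted p = 0.00453) with numbers 3 to 5. The Cebpb call was lost without C57BL/6J T0 replicate 2 or 3, DBA/2J T0 replicate 2, 129X1/SvJ T0 replicate 4 or Balb/c T0 replicate 4 (adjusted p = 0.0516 to 0.0696). Siglech differed by -0.03 (adjusted p = 0.864), Batf2 by -0.01 and Cebpa by 0.16, and none of them was called.

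**Figure D5:**
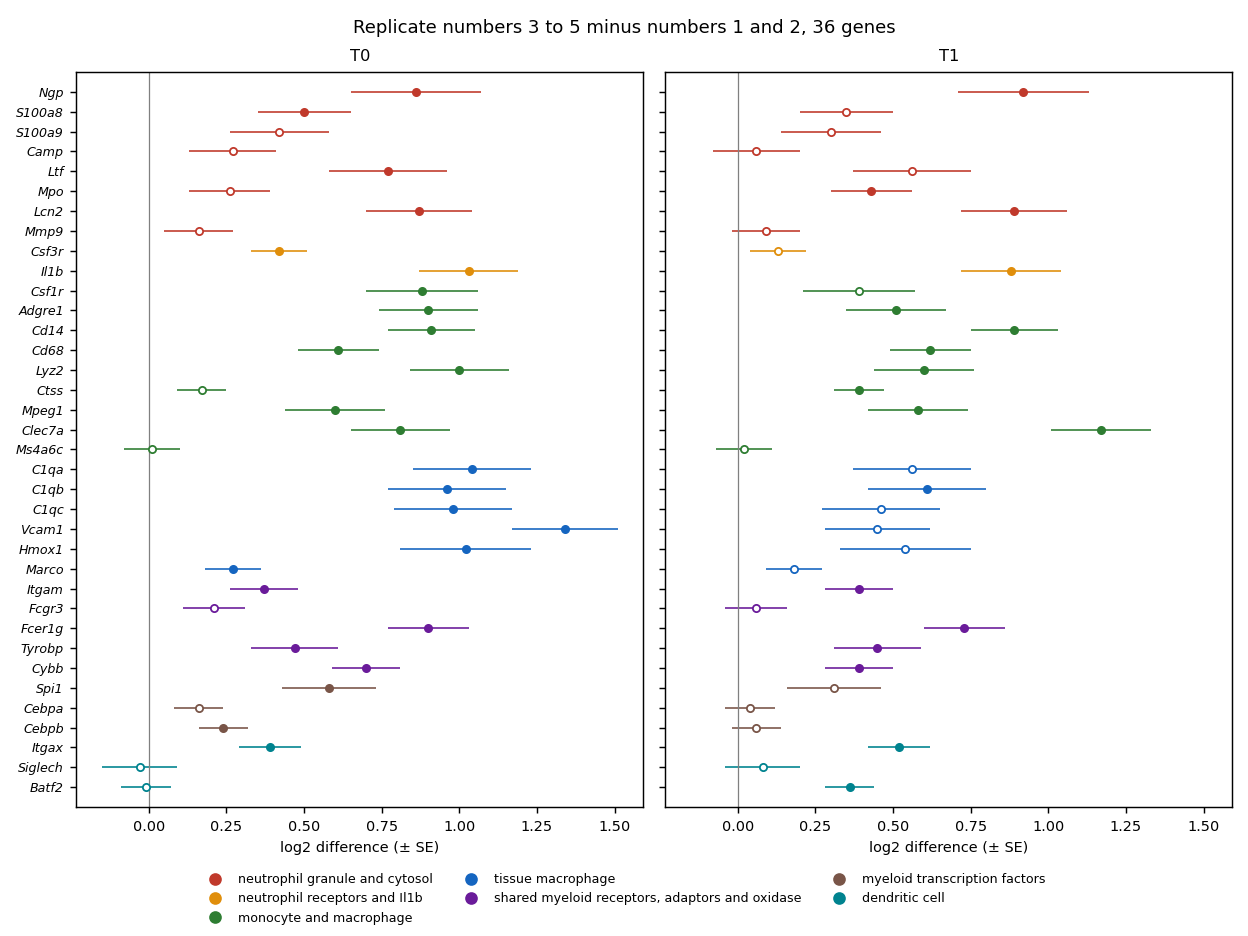
Difference of replicate numbers 3 to 5 minus 1 and 2 (log2, x axis; estimate with its SE) at T0 and at T1 for the 36 genes tested (y axis), coloured by role, with filled points for genes called. At T0 the tissue macrophage genes lie between 0.27 (Marco) and 1.34 (Vcam1), and Ms4a6c and Siglech lie near 0 at both times.

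At T1, 18 of the 36 genes were higher with numbers 3 to 5, against 3.17% of all genes called higher, and 0 were lower, against 6.53% of all genes, also at an unadjusted p below 0.05 in limma and with its trend and robust options. Without both Balb/c arrays of replicate 2 the count was 16, and without Balb/c T1 replicate 4 it was 11. Clec7a was higher by 1.17 (SE 0.16, adjusted p = 2.78e-05), Ngp by 0.92 (adjusted p = 0.00699), Lcn2 by 0.89 (adjusted p = 0.00189), Cd14 by 0.89 (adjusted p = 0.000167) and Il1b by 0.88 (adjusted p = 0.00119). Lyz2 was higher by 0.60 (adjusted p = 0.019), a call lost without 129X1/SvJ T1 replicate 4 (adjusted p = 0.0527). Of the tissue macrophage genes C1qb was called (0.61, adjusted p = 0.0361), though not without any 1 of 9 arrays (adjusted p up to 0.0997). C1qa (0.56), Hmox1 (0.54), C1qc (0.46) and Vcam1 (0.45) were not called, and whether the differences at T0 and T1 differ was not tested. Ms4a6c (0.02) and Siglech (0.08) were again not called.

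Other cell types were set beside this pattern at T0, where 8.75% of all genes were called higher and 15.5% lower. Of 12 T cell genes 3 were lower with numbers 3 to 5, by up to 0.68 for Trat1 (-0.68), while Cd4 differed by 0.02 and Cd3e by -0.07. Of 14 B cell genes, 1 was higher and 3 were lower, of 8 erythroid genes 2 were higher, of 9 CD8 T and NK cell genes 1 was lower, and of 5 basophil, mast cell and eosinophil genes 3 were higher. The 2 platelet genes differed by 0.03 and 0.14. The lists are short, and the counts of 1 gene lay near the shares of all genes. The part of these cells in the differences was not tested.

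Within both classes of numbers, C57BL/6J had the lowest T0 mean of Ngp, Ltf, Lcn2, S100a8, S100a9 and Camp. The classes use the same arrays as the comparisons above. DBA/2J had 1 T0 array with numbers 1 and 2, and Balb/c and 129X1/SvJ had 1 each with numbers 3 to 5. Among numbers 1 and 2 the range between strain means at T0 was 4.11 for Ngp, 3.34 for Ltf, 3.60 for Lcn2 and 2.32 for Camp. Among numbers 3 to 5 it was 3.02 for Ngp, 2.73 for Ltf, 2.89 for Lcn2 and 1.77 for Camp. A/J had the highest mean of all these genes among numbers 1 and 2. Among numbers 3 to 5, the Balb/c array was higher for S100a8 (7.24 against a mean of 7.12 in A/J) and S100a9 (8.38 against 8.31). With the class as a covariate, 20 genes were called for strain at T0 in place of 12, among them Vcam1 (adjusted p = 0.0091) and C1qb (adjusted p = 0.049), so the count of 0 for the tissue macrophage genes holds only without that term.

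Further genes of the same cell types, none of them among the 42, were described in the same way. Of 23 other neutrophil genes tested, 16 fell and 4 rose with stimulation (median -0.62), against 46.3% and 36% of all genes. The share of the 23 that was called lay near the 82.3% of all genes. Anxa1, which encodes annexin A1, fell by 1.44 and Retnlg, a resistin-like protein of neutrophils, by 1.34, whereas the decoy receptor gene Il1r2 rose by 2.62 and the chemokine gene Cxcl2 by 2.57. At T0, 12 of the 23 differed between strains, against 18.5% of all genes. Ly6g, the surface antigen that defines mouse neutrophils, had means of 6.70 ± 0.13 (SD, n = 4) in A/J, of 5.69 ± 1.03 (n = 3) in Balb/c, 5.09 ± 0.40 (n = 3) in 129X1/SvJ, 4.86 ± 0.32 (n = 3) in DBA/2J and 3.83 ± 0.31 (n = 4) in C57BL/6J, with the means of the last 3 strains under the limit. Anxa1 was at 7.62 ± 0.20 (SD, n = 4) in A/J and 5.62 ± 0.37 (n = 4) in C57BL/6J. The 23 genes did not all follow this order. Against the mean of the other 4 strains, 5 were higher in A/J and 1, Ncf1 (-0.67), lower, with a median of 0.09, against 3.05% and 4.16% of all genes. In C57BL/6J 8 were lower and 1 higher (median -0.32), against 8.92% of all genes called. In DBA/2J 3 were higher, among them Trem1 (0.73) and Olfm4 (0.66), and 1 was lower, against 6.34% of all genes called.

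Of 24 other monocyte and macrophage genes, 11 fell and 4 rose with stimulation (median -0.16), a smaller share than of all genes (82.3%), 4 differed between strains at T0, near the 18.5% of all genes, and 19 were higher with numbers 3 to 5 at T0, among them the iron exporter gene Slc40a1 (1.53, adjusted p = 5.39e-05). Slc40a1 itself fell by 1.07 with stimulation, and Pla2g7, a lipoprotein-associated phospholipase, by 1.11, while Lilrb4a, an inhibitory receptor, rose by 1.57. Of the 23 other neutrophil genes, 14 were higher with numbers 3 to 5 at T0, against 8.75% of all genes. Of 19 other genes listed for dendritic cells, 12 fell and 5 rose with stimulation, a share near that of all genes, 15 differed between strains at T0, and 2 were higher and 3 lower with numbers 3 to 5, against 8.75% and 15.5% of all genes. The dendritic list holds Ly6d and Klrb1f, which other lymphocytes are known to express as well, and these had the widest strain ranges in it (3.42 and 3.17).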

How the data were processed

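RNA of CD4+ spleen cells was hybridised to Affymetrix mouse arrays, 1 per sample. The deposited values are log2 intensities, which the authors made with RMA (background correction, quantile normalisation and probe summary), per the submitters' processing notes, with no version given. Values ran from 1.04 to 14.26, with array medians of 5.28 to 5.39. Of 35556 probe sets, 21789 named 1 gene, 1621 several and 12146 none, per the platform annotation supplied with them; 21698 matched RefSeq by gene ID. The probe set with the highest mean stood for its gene (19938 genes), and 11413 genes with a group mean of at least 5.327, the median of all values, were tested, while 8525 were left out.

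A linear model with 10 group means was fitted with limma 3.58.1 in R 4.3.3 (lmFit, eBayes), with Benjamini-Hochberg adjustment over the genes tested. Contrasts were T1 minus T0 (by strain and as the mean of the 5 strains), each strain against the mean of the other 4 at T0, F tests over strains at T0, at T1 and for strain by time, and numbers 3 to 5 against 1 and 2 in a second fit. The fit was tested on simulated data. The genes, the lists and the motif letters were chosen with earlier results of these data known. Named genes are the 42 genes, and from each further list those with the lowest and highest estimates. Alternatives were the filter, the normalisation, the probe set rule, the variance model, the replicate block, the number classes and leaving out arrays. The number of arrays limits the precision.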

Additional observations from a re-analysis of the deposited data

Results flagged for a closer look

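In groups of 4 arrays, 5 of 144 sets of values held 1 array far from the other 3, where chance gives about 1 in 20. Camp was at 5.05 on C57BL/6J T1 replicate 1, against 5.29 to 5.33 on the others. Lyz2 was at 9.13 on A/J T1 replicate 4, against 8.22 to 8.32. Clec7a was at 5.76 on A/J T0 replicate 5, against 5.07 to 5.15. Fcgr3 was at 5.19 on A/J T0 replicate 4, against 5.05 to 5.06. Batf2 was at 5.94 on C57BL/6J T0 replicate 2, against 5.56 to 5.61.

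The response to stimulation differed between strains in the test of strain by time for Camp (adjusted p = 0.000548), Siglech (adjusted p = 0.0125) and Ltf (adjusted p = 0.0395). Camp and Ltf had T0 and T1 means under the limit of 5.327 in C57BL/6J.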

How the results depend on the processing

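Few arrays per strain (3 or 4) and values under 5.327 limit these results, above all for granule genes at T1 and in C57BL/6J. With numbers 1 and 2 only, Vcam1 differed by 0.32 between T1 and T0, against -0.13 with all arrays. Median centring and no filter moved no count of calls by over 1.5 times. The mean of all probe sets left the values of the 40 genes as they were, since each had 1 probe set, so it is no check on them. With the number class as a covariate, the counts of genes called were 1 for Balb/c, 14 for C57BL/6J, 6 for DBA/2J and 7 for 129X1/SvJ at T0, 20 for strain at T0, 20 for strain at T1 and 13 for strain by time. With numbers 1 and 2 only, 1 gene was called for Balb/c and 5 for 129X1/SvJ at T0 and 1 for strain by time. With numbers 3 to 5 only, 7 were called for A/J and 1 for 129X1/SvJ at T0 and 5 for strain by time. Quantile normalisation again gave 1 for Balb/c and 2 for DBA/2J at T0. A limit of 6, and limma's trend and robust options, also gave 2 for DBA/2J. Without both Balb/c arrays of replicate 2, 2 were called for DBA/2J at T0, 10 for strain at T1 and 8 for strain by time. Beyond the number of samples or genes that a setting leaves, the cause was not tested.

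The T0 and T1 arrays of a strain share replicate numbers. Deviations from the group means correlated by -0.08 to 0.47 (median 0.26) over the 17 pairs, above 0.1 in 14, and 13 arrays correlated best with their own number. This is a hint from the data, not the design, that arrays of 1 number are linked; as 3 pairs did not exceed 0.1 and the labels give the numbers no meaning, no pairing was assumed. The replicate block as fixed pairs gave 20 calls for stimulation in C57BL/6J and 13 for strain by time, and as a random block 3 for DBA/2J at T0 and 11 for strain by time. Ngp, Lcn2, S100a9 and S100a8 were called for strain by time with either block.

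Leaving out each array in turn gave 18 to 22 genes lower and 4 to 5 higher with stimulation; by strain 15 to 18 called in A/J, 13 to 17 in Balb/c, 9 to 14 in C57BL/6J, 18 to 21 in DBA/2J and 19 to 20 in 129X1/SvJ. At T0 it gave 7 to 11 for A/J, 0 to 1 for Balb/c, 6 to 10 for C57BL/6J, 1 to 4 for DBA/2J and 1 to 4 for 129X1/SvJ. It gave 11 to 12 for strain at T0, 3 to 9 at T1, 2 to 6 for strain by time, 22 to 27 for numbers at T0 and 11 to 21 at T1.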
